A study of Homo sapiens with 6 samples.

Results

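The calmodulin and calcineurin genes examined here are the 9 rows of the deposited count table with the symbols CALM2, CALM3, PPP3CA, PPP3CB, PPP3R1, RCAN1, NFATC1, NFATC3 and CAMK2D, out of 31582 genes in that table. They were chosen by name, as members of a pathway, with earlier results of these data known, and all 9 passed the filter on low counts. The study measured polyadenylated RNA of MDA-MB-231, an established mesenchymal breast cancer cell line that lacks hormone receptors. One group of 3 libraries came from cells carrying an shRNA against CALR, which encodes calreticulin, and the other group of 3 from cells with a non-targeting control. Cells of both groups were kept in DMEM with serum and harvested while subconfluent. The labels give no shRNA sequence, and they leave unsaid whether replicates were separate cultures, infections or clones, so p-values measure only the spread between these libraries. In bulk RNA, fewer cells of a kind and less RNA per cell cannot be told apart.

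Calcium released from the endoplasmic reticulum, where calreticulin is a major calcium-binding protein, is read in the cytosol by calmodulin. Calmodulin binds calcium through its EF hands and, once loaded, switches on several enzymes. Among them are the CaM kinases and calcineurin, a phosphatase made of a catalytic subunit (PPP3CA, PPP3CB or PPP3CC) and a regulatory subunit (PPP3R1). Calcineurin removes phosphates from the NFAT transcription factors, which then enter the nucleus, and RCAN1 binds and restrains calcineurin while its own gene is among the known NFAT targets. In breast cancer cells NFAT factors are known for a role in migration.

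CALM2 and CALM3 lie on different chromosomes and encode the same calmodulin protein, so a change in one can be told from a change in the other in RNA only because the gene sequences differ. The first 150 of the 450 coding bases are shown, taken from the GENCODE 29 transcripts on GRCh38, 5′ to 3′ from the start codon. Capitals mark the 26 positions at which CALM2 and CALM3 differ.
CALM2: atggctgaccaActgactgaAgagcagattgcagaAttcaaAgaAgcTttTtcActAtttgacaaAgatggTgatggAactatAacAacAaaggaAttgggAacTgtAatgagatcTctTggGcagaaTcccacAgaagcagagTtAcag
CALM3: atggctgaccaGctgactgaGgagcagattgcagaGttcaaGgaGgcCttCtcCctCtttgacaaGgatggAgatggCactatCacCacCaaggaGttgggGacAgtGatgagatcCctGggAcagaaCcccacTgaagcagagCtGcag

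Over all 450 bases CALM2 and CALM3 were identical at 81.8%. Of the 82 bases that differ, 79 are the last base of a codon and 3 the first. The longest stretch without a difference is 17 bases. The last base of the codon was G or C in 69.3% of CALM3 codons, against 30.0% for CALM2. CALM2 has 4 named processed pseudogenes in GENCODE, none of which is a row of the count table, and how reads shared with them were counted is not given in the sources used here, so its count is uncertain.

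Sequencing depth lay between 34639090 and 42425310 counts per library. CALR remained at 47.5%, 6.39% and 10.6% of the control mean in knockdown replicates 1, 2 and 3. Mesenchymal markers of the line were abundant, with VIM at 795 FPKM or more, and ESR1, PGR and CDH1 were at 0.2 FPKM or less in every library. The 6 markers expected to be high (VIM, CD44, AXL, FOSL1, MSN and CAV1) summed to 1727 to 2021 FPKM in knockdown and 1298 to 1375 FPKM in control libraries, without overlap. VIM, at 795 to 1317 FPKM, was the largest part of this sum, and no other marker in it exceeded 254 FPKM. The separation is thus one of the sum and is not shown for each marker. The part of this difference in the differences of the members was not tested. KRT8, listed among markers expected to be low, was at 58.2 to 97.9 FPKM. The blood markers PTPRC, CD3E and CD14 summed to 0.18 to 0.48 FPKM in knockdown and 0.43 to 0.56 FPKM in control libraries, and fibroblast and endothelial markers to 0.29 to 0.69 FPKM. The knockdown libraries differed among themselves in how counts followed base composition. In the fifth of tested genes with the lowest transcript GC content (23.1% to 41.1%), the median log2 difference from the control mean was −0.46 and −0.57 in knockdown replicates 1 and 3 but 0.13 in replicate 2. In the fifth with the highest GC content these medians were 0.18, 0.38 and −0.14. Each member is therefore given also after the trend of each library with GC content was removed (the GC correction).

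Of the 9 members, CALM3 was the one that stood apart from the controls, and 0 of 9 passed the adjusted threshold of 0.05. The test was edgeR's quasi-likelihood test on counts of all 16394 tested genes, in which 0.0% of genes passed. CALR itself, at a log2 fold change of −2.22 ± 0.64 (SE), did not pass either (unadjusted p = 0.00747, adjusted p = 0.209, edgeR). A member that missed the threshold is therefore not shown to be unchanged. At an unadjusted p under 0.05 edgeR gave 1 member, CALM3, against 15.5% of all tested genes, and the 3 knockdown libraries lay on one side of the 3 controls for that same member, against 22.5% of all tested genes. These shares over all genes are of the order of 1 member in 9, so the count by itself is not a result about the pathway. The members' median log2 fold change was −0.13, with 2 positive and 7 negative values, beside −0.00072 for all tested genes. After the GC correction the members' median was 0.03, beside 0.08 for all tested genes.

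**Figure D1:**
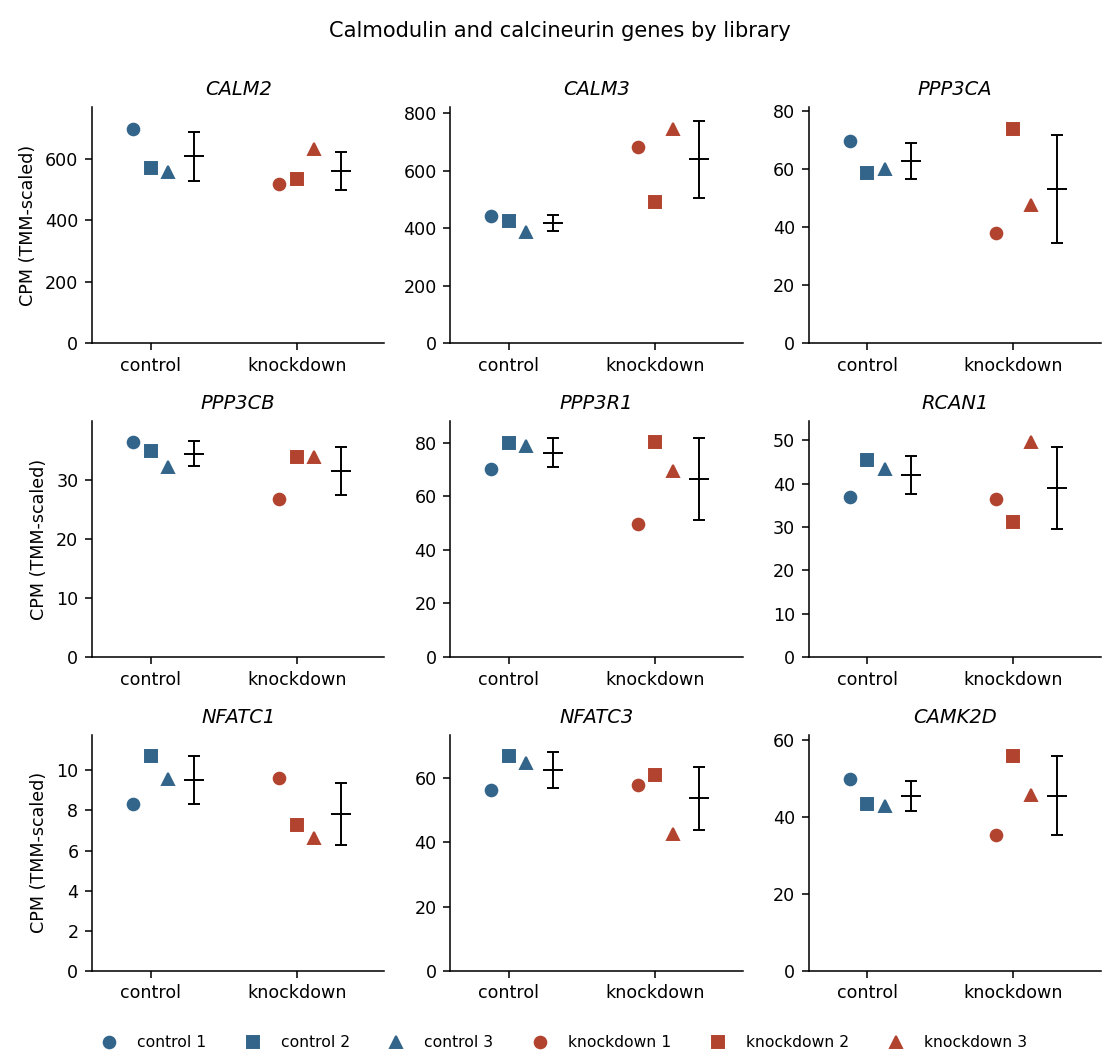
Normalised level (CPM, counts scaled to library size with TMM factors, axes from 0) of each member in the 3 control and 3 knockdown libraries; the bar beside each group is the mean ± SD. CALM3 is the gene whose knockdown libraries (491 to 747 CPM) all lie above its controls (389 to 444 CPM), and in the other 8 panels the groups overlap.

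Levels per length, as deposited FPKM, set CALM2 and CALM3 far above the other members. In the controls CALM2 was at 391 ± 39.7 FPKM and CALM3 at 159 ± 6.83 (SD, n = 3). The calcineurin regulatory subunit PPP3R1 followed at 22.2 ± 2.12 FPKM and the catalytic subunit PPP3CA at 13.0 ± 0.943. Then came NFATC3 at 8.857 ± 1.004, RCAN1 at 8.02 ± 1.02, PPP3CB at 7.52 ± 0.293, CAMK2D at 6.51 ± 0.372 and NFATC1 at 1.23 ± 0.177 FPKM. The ranges of the controls overlapped between NFATC3 and RCAN1 and between RCAN1 and PPP3CB, and no other neighbours in this order overlapped. Both calmodulin members were thus above every calcineurin subunit in every control library, and NFATC3 was the more abundant NFAT member.

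CALM3 (ENSG00000160014.16) occupies chromosome 19 from 46601074 to 46610793 on the plus strand of GRCh38, the build of all positions given here. It had 23861, 19773 and 27853 counts in knockdown replicates 1 to 3, against 16768, 15465 and 16960 in the controls. Scaled to library size, its level was 682, 491 and 747 CPM in the knockdown and 444, 425 and 389 CPM in the control libraries. Every knockdown library was above every control, with replicate 2 closest to them. The means were 640 ± 133 and 419 ± 27.8 CPM (SD, n = 3), and the log2 fold change was 0.61 ± 0.19 (SE), with a 95% interval of 0.18 to 1.04. In edgeR's quasi-likelihood test p was 0.0104 before and 0.219 after adjustment, and DESeq2, which called 3.23% of the genes it tested, gave an adjusted p of 0.0748. With knockdown replicate 2 left out the log2 fold change was 0.77 and passed (adjusted p = 0.016, edgeR), the one call of a member among the 18 alternative fits. In that fit 2604 of 16783 tested genes passed, so the call is not particular to CALM3. Replicate 2 was the knockdown library with the least CALR left, at 6.39% of the control mean. The log2 fold change of CALM3 ranged from 0.50 to 0.77 with 1 library left out.

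CALM3 is among the GC-rich members, at 57.4% in its longest coding transcript. In knockdown replicates 1 to 3 its log2 CPM was 0.70, 0.23 and 0.84 above the control mean, and after the GC correction 0.62, 0.43 and 0.56. The differences between the knockdown libraries became smaller and the fitted value stayed positive, at 0.54 ± 0.12 (SE) with an adjusted p of 0.0772 in edgeR (0.00165 unadjusted). After that correction 20.6% of all tested genes had an unadjusted p under 0.05 (14.0% on the higher side, as CALM3) and 0.0671% an adjusted p under 0.05. Genes on the other strand overlap 10.9% of CALM3 exon bases, and the strand setting of the counting is not given in the sources used here.

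CALM2, on chromosome 2 at 47160082 to 47176601 (minus strand, ENSG00000143933.16), was at 518, 534 and 631 CPM in the knockdown and 699, 570 and 556 CPM in the control libraries. Both groups overlapped. Its log2 fold change was −0.12 ± 0.17 (SE, edgeR adjusted p = 0.750), with a 95% interval of −0.50 to 0.26, which overlaps that of CALM3 (0.18 to 1.04). Both genes were measured in the same libraries, so this overlap is not a test of whether CALM2 and CALM3 differ. The longest coding transcript of CALM2 has 38.9% GC, the lowest of the 9 members, and after the GC correction the value was 0.22 ± 0.21.

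The share of CALM3 in the FPKM of CALM2 and CALM3 was chosen after the levels of both had been seen, so it is given as a description with no test. CALM3 made up 43.65%, 35.12% and 41.07% of the summed FPKM of CALM2 and CALM3 in knockdown replicates 1 to 3, against 27.2%, 30.48% and 29.16% in the controls. The groups did not overlap in the deposited values. The means were 39.95% ± 4.371 and 28.95% ± 1.646 (SD, n = 3). After the GC correction CALM3 held 37.94%, 42.19% and 31.19% in knockdown and 29.47%, 31.46% and 33.69% in control libraries. The difference was then 5.563 percentage points, and the groups overlapped, with knockdown replicate 3 below control replicates 2 and 3. In knockdown replicates 1 to 3 the log2 difference of CALM2 from the control mean was −0.22, −0.18 and 0.06 before the correction. After it these values were 0.21, −0.24 and 0.59, so for CALM2 the knockdown libraries moved further apart. Whether the correction suits CALM2 was not tested.

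The sum of CALM2 and CALM3 overlapped between the groups. It was 552 ± 34.9 FPKM in the knockdown group and 549.7 ± 44.13 FPKM in the control group (SD, n = 3; exact two-sided permutation p = 0.9, where 3 against 3 libraries cannot go below 0.1), a ratio of 1.003. On the TMM-scaled CPM scale the ratio was 1.169 (exact permutation p = 0.2). With library size alone in place of TMM the median log2 fold change of all tested genes moved to −0.13.

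**Figure D2:**
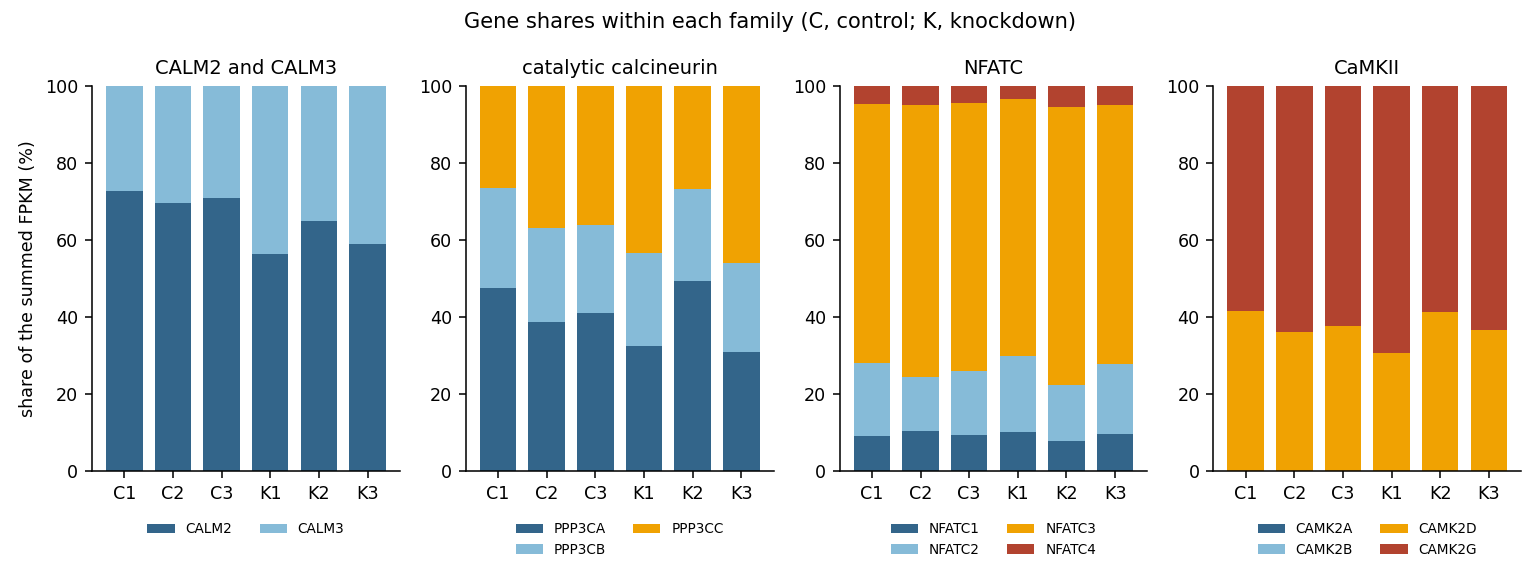
Share of the summed FPKM held by each gene of CALM2 with CALM3, the catalytic calcineurin subunits, the NFATC factors and CaM kinase II (stacked bars, 0% to 100%) in control (C1 to C3) and knockdown (K1 to K3) libraries. The CALM3 part covers 35.12% to 43.65% in the knockdown and 27.2% to 30.48% in the control libraries, while the PPP3CB and NFATC3 parts stay close between groups; CAMK2A and CAMK2B are too small to be seen.

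The knockdown and control libraries overlapped for each calcineurin subunit, and PPP3CA was the most variable of them among the knockdown libraries. PPP3CA, the alpha catalytic subunit, lies on chromosome 4 at 101023409 to 101348278 (minus strand, ENSG00000138814.16). It was at 38.0, 73.9 and 47.6 CPM in knockdown replicates 1 to 3 and at 69.8, 58.4 and 60.1 CPM in the controls. Replicates 1 and 3 were below all controls and replicate 2 above all of them. The log2 fold change was −0.24 ± 0.25 (SE, 95% interval −0.80 to 0.32, edgeR adjusted p = 0.643). With knockdown replicate 2 left out it was −0.55 (unadjusted p = 0.00969, adjusted p = 0.0555, edgeR), and with replicate 1 left out −0.04.

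PPP3R1, the regulatory subunit that binds calcium itself, lies on chromosome 2 at 68178857 to 68256237 (minus strand, ENSG00000221823.10). It was at 49.9, 80.2 and 69.7 CPM in knockdown and 70.2, 80.1 and 79.0 CPM in control libraries. Knockdown replicate 1 was the low one, and replicate 2 was level with the highest controls. Its log2 fold change was −0.20 ± 0.20 (SE, 95% interval −0.65 to 0.25), and 0.03 ± 0.17 after the GC correction. Same-strand transcripts share 13.7% of its exon bases and opposite-strand ones 20.8%.

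PPP3CB, the beta catalytic subunit, lies on chromosome 10 at 73436428 to 73496024 (minus strand, ENSG00000107758.15). It was at 26.8, 33.9 and 33.8 CPM in knockdown and 36.3, 34.8 and 32.1 CPM in control libraries. It too was lowest in knockdown replicate 1, with a log2 fold change of −0.13 ± 0.17 (SE, 95% interval −0.52 to 0.27). PPP3CC, the third catalytic gene and not a member, was at 29.3 ± 8.43 and 26.7 ± 4.84 CPM (log2 fold change 0.13 ± 0.25). The PPP3CB share of the catalytic FPKM was 23.7% ± 0.511 in knockdown and 24.46% ± 1.498 among the controls (SD, n = 3; exact permutation p = 0.5, or 0.9 adjusted over the 3 shares tested). PPP3CA held 32.56% and 30.95% of it in knockdown replicates 1 and 3 and 49.35% in replicate 2, beside 38.78% to 47.45% in the controls. The knockdown libraries thus differed from each other in the alpha share by more than the controls did, with replicate 2 apart from replicates 1 and 3.

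The transcripts of the calcineurin members are AU-rich, at 42.6% GC for PPP3CA, 41.0% for PPP3CB and 40.7% for PPP3R1. After the GC correction PPP3CA was at −0.09 ± 0.19 and PPP3CB at 0.10 ± 0.16 (SE). In knockdown replicate 1 the log2 difference of PPP3CA from the control mean went from −0.72 to −0.49 with the correction, and in replicate 3 from −0.39 to −0.11. The part of base composition in these values was measured in this way only.

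**Figure D3:**
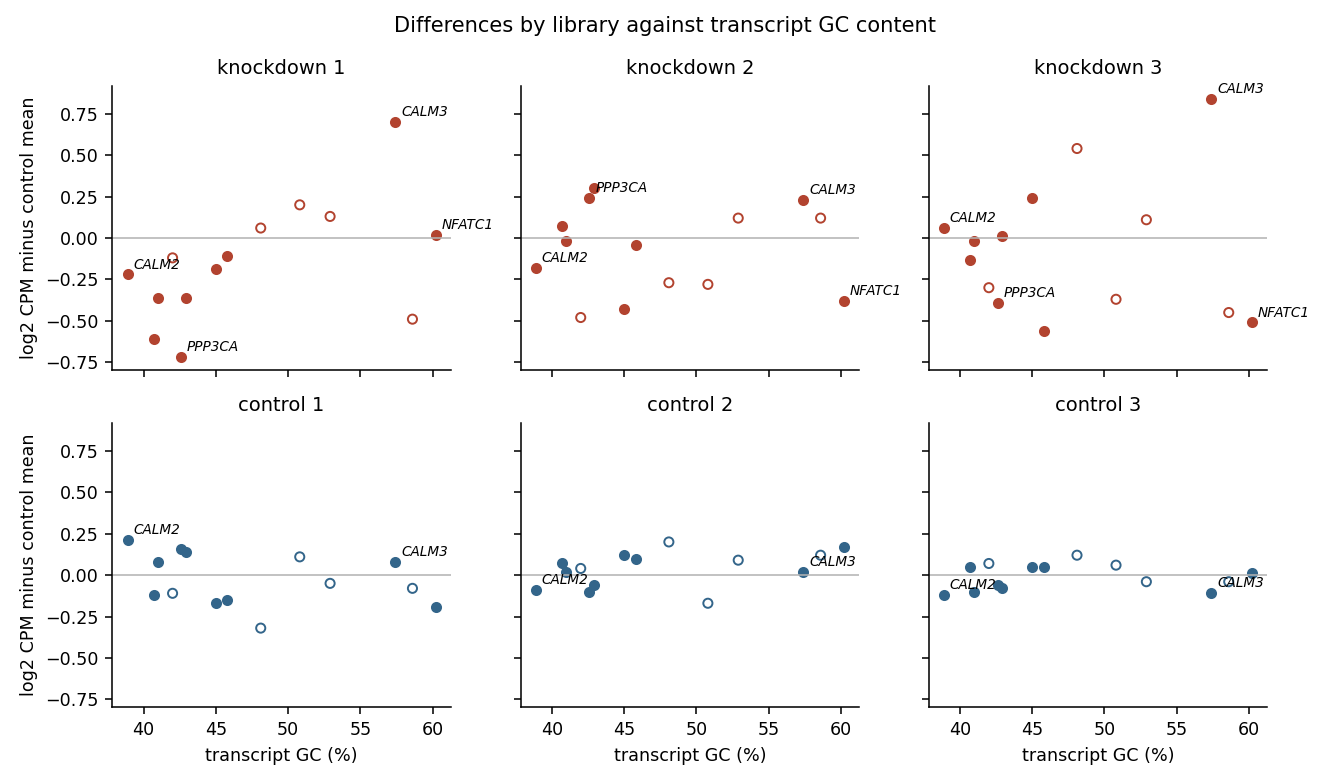
Log2 CPM minus the control mean (y axis) against the GC content of the longest coding transcript (x axis, %), by library, for the 9 members (filled) and PPP3CC, NFATC2, NFATC4, CAMK2G and RCAN3 (open). In knockdown replicates 1 and 3 CALM3, at 57.4% GC, is 0.70 and 0.84 above the control mean, and in replicate 1 the 4 members between 40.7% and 42.9% GC lie 0.36 or more below it. The members at the 2 ends do not follow this order in replicate 3. CALM2, at 38.9% GC, is at −0.22 in replicate 1 and 0.06 in replicate 3, and NFATC1, at 60.2%, at 0.02 and −0.51.

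RCAN1, the feedback inhibitor of calcineurin, showed no common direction. The gene lies on chromosome 21 at 34513142 to 34615142 (minus strand, ENSG00000159200.17). It was at 36.5, 31.0 and 49.5 CPM in knockdown replicates 1 to 3 and 37.0, 45.5 and 43.3 CPM in the controls. Replicates 1 and 2 were below all controls and replicate 3 above all of them. The log2 fold change was −0.10 ± 0.21 (SE, 95% interval −0.58 to 0.37, edgeR adjusted p = 0.825), and it was 0.04 without knockdown replicate 2 and −0.30 without replicate 3. RCAN1 is annotated with 13 transcript starts, and a count per gene cannot separate the short NFAT-induced form from the long one. Among 12417 other genes whose log2 CPM averaged 1 or more, those most like RCAN1 over the 6 libraries were METRNL, MAFF and DNAJB2, with Pearson's r of 0.999, 0.998 and 0.996. Most like CALM3 were UROS, RRP7A and CDK16, each with r above 0.999. These correlations describe 6 libraries that fall into 2 groups and carry no test.

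The NFAT factors had negative fold changes of small size. NFATC3, on chromosome 16 at 68084751 to 68229259 (plus strand, ENSG00000072736.18), was at 57.8, 61.0 and 42.5 CPM in knockdown and 56.2, 66.9 and 64.9 CPM in control libraries. Replicate 3 was the low library, and the other 2 were within the range of the controls. Its log2 fold change was −0.22 ± 0.19 (SE, 95% interval −0.64 to 0.20, edgeR adjusted p = 0.568), or −0.06 without knockdown replicate 3. Other genes share 19.0% of its exon bases on the same strand and 33.0% on the opposite one, so its count is uncertain.

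NFATC1, on chromosome 18 at 79395856 to 79529325 (plus strand, ENSG00000131196.17), was the least abundant member. It was at 9.60, 7.25 and 6.63 CPM in knockdown and 8.33, 10.7 and 9.56 CPM in control libraries. Replicates 2 and 3 were below all controls and replicate 1 among them. The log2 fold change was −0.28 ± 0.23 (SE, 95% interval −0.80 to 0.23), with −0.45 to −0.16 when 1 library was left out. It is the most GC-rich member, at 60.2%, and after the GC correction it was at −0.32 ± 0.24. NFATC2 (−0.14 ± 0.22), NFATC4 (−0.25 ± 0.26) and the tonicity-responsive NFAT5 (−0.39 ± 0.40) were also negative, so all 5 NFAT genes had negative values, and 0 of 5 had an unadjusted p under 0.05 in edgeR. Over all tested genes 15.5% had an unadjusted p under 0.05. The median of the 5 NFAT genes was −0.25, and −0.21 after the GC correction. The 95% interval of each of the 5 held 0, and 8213 of all 16394 tested genes also had negative values. NFAT5 stood at 35.2, 101 and 32.3 CPM in knockdown replicates 1 to 3 and at 73.4, 65.5 and 81.6 CPM in the controls, with replicate 2 above and the other 2 below all controls. Without replicate 2 its log2 fold change was −1.12 (adjusted p = 0.015, edgeR), in a fit where 2604 of 16783 tested genes passed. NFATC3 held 68.77% ± 2.996 of the FPKM of NFATC1 to NFATC4 in knockdown and 69.2% ± 1.86 among the controls (SD, n = 3; exact permutation p = 0.9).

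CAMK2D, the delta chain of CaM kinase II, lies on chromosome 4 at 113451032 to 113761927 (minus strand, ENSG00000145349.16). It was at 35.2, 55.8 and 45.6 CPM in knockdown and 49.8, 43.5 and 42.9 CPM in control libraries. Replicate 1 was below and replicate 2 above all controls. The log2 fold change was 0.01 ± 0.20 (SE, 95% interval −0.45 to 0.46, edgeR adjusted p = 0.992). The gamma chain CAMK2G, the more abundant form per length (FPKM), was at 45.7 ± 0.408 and 42.0 ± 2.20 CPM (log2 fold change 0.12 ± 0.15, edgeR adjusted p = 0.711). In CPM each knockdown library was above each control, where 22.5% of all tested genes had groups apart in either direction. In FPKM the groups of CAMK2G overlapped, at 10.47 ± 0.822 in knockdown and 10.48 ± 0.691 among the controls. The alpha and beta chains had 5 counts or fewer in every library. CAMK2D made up 36.1% ± 5.35 of the CaM kinase II FPKM in knockdown and 38.3% ± 2.79 among the controls (SD, n = 3; exact permutation p = 0.6).

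**Figure D4:**
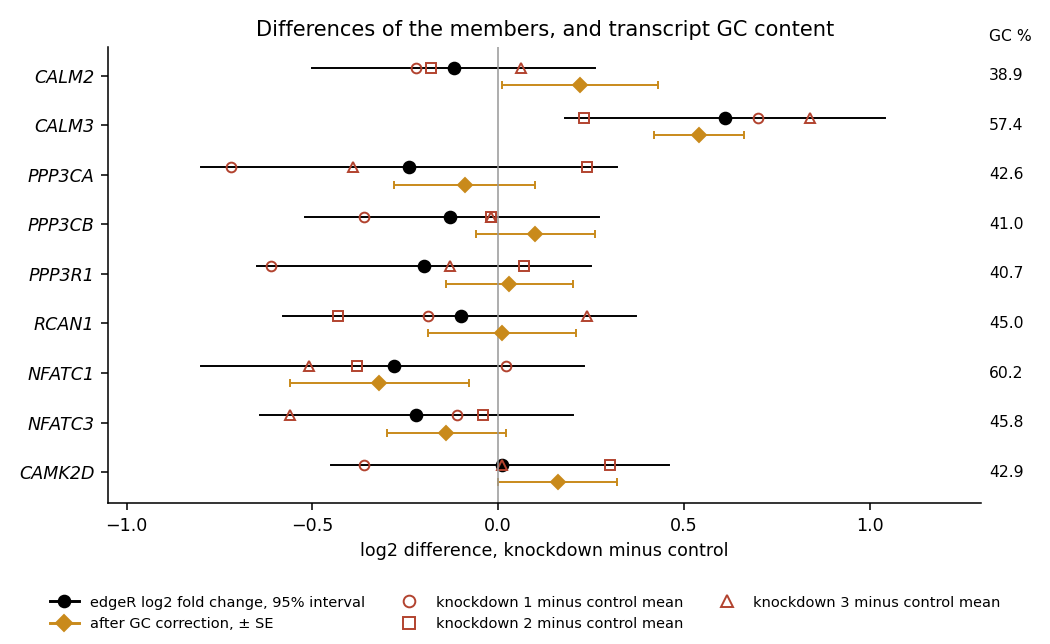
Log2 difference between knockdown and control for each member: edgeR's log2 fold change with its 95% interval (black), the value after the GC correction ± SE (gold) and each knockdown library minus the control mean (open red marks); GC content of the longest coding transcript at the right. The interval of CALM3 (0.18 to 1.04) lies above 0 and the other 8 intervals hold 0, and after the GC correction CALM2, PPP3CB, PPP3R1 and RCAN1 (to 0.01) move from below to above 0.

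Around the members, 109 further genes of the pathway were listed in 10 groups, some genes in more than one. Of these 109, 100 were rows of the count table and 80 were tested. At an unadjusted p under 0.05 edgeR gave 2 higher and 5 lower, where over all tested genes 8.17% were higher and 7.36% lower, and 0 passed the adjusted threshold. The knockdown libraries lay wholly above the controls for 6 genes and wholly below for 8, where 11.3% and 11.2% of all tested genes were. Their median log2 fold change was 0.05.

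Among the CaM kinases and their inhibitors, 1 of 13 tested was lower and 0 higher at an unadjusted p under 0.05 in edgeR. Over all tested genes 7.36% were lower and 8.17% higher, so the count by itself is not a result about this list. The lower one was CAMK2N1, which encodes an inhibitor of CaM kinase II. It was at 17.8, 11.5 and 20.2 CPM in knockdown and 28.9, 35.7 and 33.3 CPM in control libraries, all 3 knockdown libraries below all controls. Its log2 fold change was −0.98 ± 0.24 (SE, 95% interval −1.52 to −0.44), with an adjusted p of 0.176 in edgeR (0.00261 unadjusted) and 0.0102 in DESeq2. After the GC correction it was at −1.03 ± 0.18 (adjusted p = 0.0634, edgeR). The ratio of CAMK2D and CAMK2G to CAMK2N1 FPKM, chosen after its values were seen, was 2.23, 4.03 and 2.11 in knockdown and 1.43, 1.16 and 1.18 in control libraries. The ratio restates the lower CAMK2N1 level. Its exact permutation p was 0.1, the smallest that 3 against 3 libraries allow, and adds no separate support. The transcript of the inhibitor was lower in each knockdown library than in each control, while the log2 fold changes of CAMK2D and CAMK2G were 0.01 and 0.12.

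At an unadjusted p under 0.05 in edgeR, 8.17% of all tested genes were higher and 7.36% lower. The counts of the next lists are to be read beside these shares. Of the calcineurin inhibitors and anchors, 1 of 10 tested was higher at that threshold. It was FKBP1A, the immunophilin through which the drug FK506 blocks calcineurin, at 1057 ± 130 CPM in knockdown and 745 ± 19.1 CPM among the controls (SD, n = 3). Each knockdown library was above each control, and the log2 fold change was 0.51 ± 0.16 (SE, unadjusted p = 0.0107, adjusted p = 0.220, edgeR), or 0.53 ± 0.13 after the GC correction. RCAN3, a relative of RCAN1, was at 18.8 ± 2.36 and 23.0 ± 1.46 CPM, with each knockdown library below each control (log2 fold change −0.30 ± 0.18, edgeR adjusted p = 0.448), and −0.09 ± 0.19 after the GC correction. Of the other calcineurin substrates, 1 of 13 was lower, the transcription factor FOXO1, at 6.93 ± 1.04 and 10.97 ± 1.506 CPM (log2 fold change −0.66 ± 0.22, unadjusted p = 0.0149, adjusted p = 0.230, edgeR). PDE1C, a calmodulin-dependent phosphodiesterase, had 0, 2 and 9 counts in knockdown and 60, 23 and 25 in control libraries. It was the lower one of 5 tested calmodulin-dependent enzymes (adjusted p = 0.196 in edgeR and 0.0215 in DESeq2), and at so few counts its fold change is uncertain. With knockdown replicate 2 left out, where 2604 of all genes passed the adjusted threshold in edgeR, CAMK2N1 (−0.78), FKBP1A (0.54) and FOXO1 (−0.78) passed too. They are not the only listed genes to pass with 1 library left out. Others were STRN3, XPO1 and PPIA, with lowest adjusted p of 0.0184, 0.0295 and 0.0298 in edgeR.

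Genes known to be induced through calcineurin and NFAT went both ways. Of 21 listed, 17 were in the table and 11 tested. At an unadjusted p under 0.05 edgeR gave 1 higher and 2 lower, each with overlapping groups. Over all tested genes 8.17% were higher and 7.36% lower. PLAUR, the urokinase receptor, was at 452, 210 and 486 CPM in knockdown and 177, 215 and 196 CPM in control libraries (log2 fold change 0.97 ± 0.29, adjusted p = 0.218 in edgeR and 0.0443 in DESeq2), and without knockdown replicate 2 it passed in edgeR at 1.26. The early response factors NR4A1 (−1.25 ± 0.40, adjusted p = 0.225, edgeR) and EGR2 (−1.17 ± 0.44, adjusted p = 0.268, edgeR) were on the lower side. NR4A1 was at 3.83, 2.09 and 5.12 CPM in knockdown and 5.03, 11.4 and 9.79 CPM in control libraries. EGR2 was scarce, at 0.958 ± 0.379 and 2.16 ± 0.864 CPM, with controls 1 to 3 at 1.16, 2.58 and 2.73 CPM. For both genes control replicate 1 was below the highest knockdown library. The list's median was 0.34, with 6 positive and 5 negative values, and −0.16 to 0.44 with 1 library left out. Its median difference from the control mean was 0.02, −1.58 and 0.24 in knockdown replicates 1 to 3, so replicate 2 was far below the other 2. RCAN1 and NFATC1, which are members and also on this list, have the values given above.

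**Figure D5:**
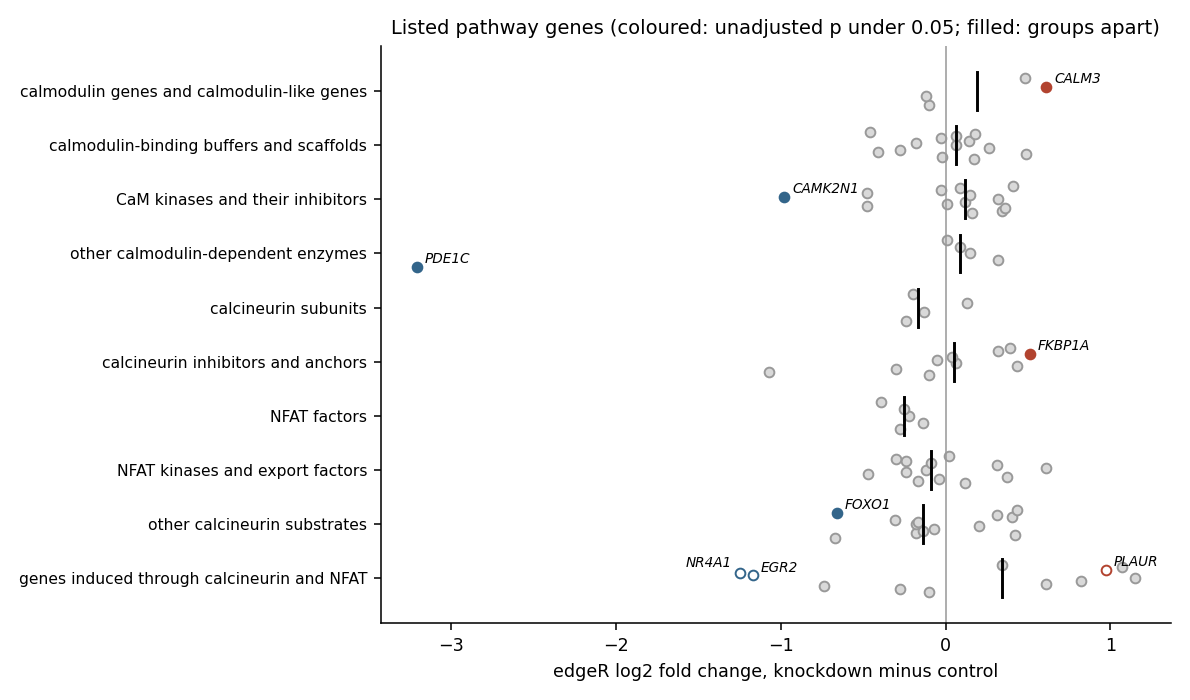
EdgeR log2 fold change (knockdown minus control) of each tested gene of the 10 pathway groups; coloured points have an unadjusted p under 0.05, filled where the groups are also fully apart, grey points are all other genes, and black bars are medians. CALM3 and FKBP1A are the filled coloured points above 0, CAMK2N1, PDE1C and FOXO1 those below 0, and the 5 NFAT factors all lie below 0 with a median of −0.25.

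For most members the knockdown libraries were further apart than the controls. The coefficient of variation of PPP3CA was 34.95% in knockdown and 9.735% in control libraries, that of PPP3R1 23.2% and 7.12%, that of RCAN1 24.3% and 10.5%, and that of CAMK2D 22.57% and 8.501%. It was larger in knockdown than in control libraries for 8 of the 9 members, the exception being CALM2 at 10.9% and 12.9%. The wider spread was not limited to the members. Chi-square per gene between pairs of libraries was 105.4 to 199.3 in the knockdown group and 11.77 to 48.13 in the control group. The share of all tested genes with a larger coefficient in knockdown is not given here, so the count is not read as a trait of the members. Every member had 247 or more counts in every library. The 95% intervals of the 8 members other than CALM3 reached from −0.80 to 0.46, taking the lowest and highest bound of any of them, and each held 0.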

How the data were processed

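RNA of 6 libraries of MDA-MB-231 cells, 3 with CALR knockdown and 3 controls, was analysed from the count table and the FPKM table the authors deposited. Per the labels' protocols, the libraries were polyA-selected and stranded. FastQC 0.9.5, TopHat2 and the build GRCh38 are named in the submitters' processing notes. Which program counted reads, on which strand and with which annotation is not given in the sources used here. The deposited counts are whole numbers of reads per gene, and the deposited FPKM values are rounded to 2 decimals.

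Genes were filtered with filterByExpr, scaled with TMM and tested with the quasi-likelihood test of edgeR 4.0.16 under R 4.3.3, knockdown against control, with no covariate. Benjamini-Hochberg adjustment covered 16394 genes. Each standard error is |log2 fold change| over the root of the F statistic. Log2 CPM values have a prior count of 2. For the GC correction each gene's log2 CPM was taken minus its mean over the 6 libraries. Per library, a spline (5 degrees of freedom) of these deviations was fitted on GC content of the longest coding transcript of GENCODE 29, known for 99.4% of tested genes. The fitted trend, centred per gene, was removed, in edgeR as an offset. A knockdown difference that itself follows GC content is removed with it. Identifiers without version matched GENCODE for 30871 of 31582 genes. Shares within families and sums had exact two-sided permutation tests. Within groups, chi-square per gene between pairs of libraries was 11.8 to 199, so no library was a repeat of another.

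The members and lists were chosen with earlier results of these data known. Named genes were the members, CALR, other genes of the 4 families, the listed genes with an unadjusted p under 0.05 and groups apart, and the 3 genes most like RCAN1 and CALM3. PLAUR, NR4A1, EGR2, RCAN3 and NFAT5 were added after their values were seen. The planned calmodulin share and 1 blood marker are not reported here, and the share of CALM3 in CALM2 and CALM3, chosen after the data were seen, takes the place of the first. The test was run on simulated data with known changes first. Alternatives were DESeq2 1.42.0 and its factors, limma 3.58.1 (voom, and log2 of FPKM plus 1 or 0.1), library size alone, other filters, each library left out, the replicate number as a block, and the GC correction.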

Additional observations from a re-analysis of the deposited data

How the results depend on the processing

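Over all genes the adjusted count was 0 in edgeR (2546 at an unadjusted p under 0.05) and 0 to 2604 with 1 library left out. It was 530 with DESeq2, 988 with no low-count filter, 11 with the GC correction and 5 on log2(FPKM + 1) with no filter. The count of members was 0, and 0 to 1 with 1 library left out (CALM3, without knockdown replicate 2). At an unadjusted p under 0.05 in edgeR it was 1, and 0 to 2 with 1 library left out, PPP3CA joining without knockdown replicate 2. CALM3 missed it without control replicate 3 (adjusted p = 0.692, edgeR, 0.0505 unadjusted). Its adjusted p was 0.016 to 0.692 over the alternatives. Of 162 values of members under the alternatives, 143 kept direction and side of the threshold, 1 passed it and 18 changed sign, each to 0.22 or less in size. With the GC correction, and with it and the replicate block, CALM2 was at 0.22 and 0.19, PPP3CB at 0.10 and 0.09, and PPP3R1 at 0.03 and 0.01. RCAN1 was at 0.01 with the GC correction and −0.30 to 0.04 with 1 library left out. CAMK2D was at −0.11 with library size alone, −0.01 with limma-voom, −0.03 at a CPM of at least 1, −0.16 to 0.16 with 1 library left out, and −0.12, −0.14 and −0.12 on the FPKM scales. PPP3CC was at −0.03 with library size alone, −0.01, −0.02 and −0.01 on the FPKM scales, and −0.10 to 0.31 with 1 library left out. CAMK2G was at −0.01 with library size alone and at −0.0024, −0.0027 and −0.0024 on the FPKM scales. The cause of these shifts was not tested.

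The CALM3 share of CALM2 and CALM3 differed by 9.148 to 13.41 percentage points with 1 library left out, by 12.09 as a share of counts and by 5.563 with the GC trend removed. The PPP3CB share, at −0.753, was at 0.0476 as a share of counts, 0.947 with the GC trend removed and −1.46 to 0.0302 with 1 library left out. The NFATC3 share, at −0.393, was at 1.24 with the GC trend removed and −2.12 to 0.628 with 1 library left out. The CAMK2D share, at −2.16, was at 0.880 with the GC trend removed and −4.70 to 0.636 with 1 library left out.

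Same-numbered libraries had correlations of 0.20, −0.12 and −0.22 in their deviations from the group means, so the replicate numbers were not taken as pairs. With the replicate block edgeR called 0 genes, or 25 together with the GC correction, and 0 members. CAMK2D was at −0.02 with the block.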
